A study of Loxodonta africana with 12 samples.

Results

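Mitosis and G2/M genes are the genes that carry a cell from the end of DNA replication through chromosome segregation and cell division. The genes described here were chosen as a list of 60 symbols, and 56 of them name a row among the 16406 genes of the count tables of an African elephant (Loxodonta africana) irradiation study. MAD2L1, INCENP, KIF4A and PTTG1 matched no row by symbol and were not analysed here. RNA was sequenced from blood cells in 12 libraries, and irradiated cells were compared with untreated cells. The 4 groups of 3 libraries were cells irradiated at 2 Gy and sampled at 5 h, untreated cells at 5 h, cells irradiated at 2 Gy and sampled at 24 h, and untreated cells at 24 h. The labels name no other agent, and they do not say how the cells were isolated or cultured or whether replicates came from separate animals or cultures, so the p-values describe only how much these libraries vary, and that variation could be technical.

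Entry into mitosis is driven by cyclin B bound to the kinase CDK1, which CDC25 phosphatases activate. Polo-like and Aurora kinases then build the spindle, condensin compacts the chromosomes, kinetochores attach them to microtubules, and the spindle checkpoint holds back the anaphase-promoting complex until all are attached. In cells with damaged DNA, the p53 target CDKN1A (p21) inhibits cyclin-dependent kinases, and the DREAM complex, built on the pocket proteins RBL1 and RBL2 with E2F4 and LIN9, represses many of these genes. Most circulating blood cells do not divide, so mitotic transcripts are usually scarce in blood. The roles given here come from human and other model cells.

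The libraries of 5 h held between 31059389 and 38138163 gene counts each, and those of 24 h between 18022475 and 37356501. Levels are given as CPM, read counts relative to the library total after TMM scaling over all 12 libraries. Markers of T cells, B cells, NK cells, monocytes and neutrophils that matched a row were all detected. Among 10 stromal and endothelial markers, the mean ran from 0.197 CPM for DCN to 583 CPM for PECAM1. The collagen COL1A1 averaged 0.844, VWF 22.5 and PDGFRB 28.9 CPM. Per kilobase of exon, the member levels over the 12 libraries ran from 0.20 CPM for the kinesin KIF18B to 106 CPM for the checkpoint protein BUB3. BUB3 was followed by the condensin subunit SMC4 at 49.4 CPM, the phosphatase CDC25B at 22.0 and the condensin subunit SMC2 at 10.6 CPM per kilobase. CCNB1 stood at 8.91, CDK1 at 5.10, TOP2A at 2.39, PLK1 at 0.824, AURKB at 0.675 and FOXM1 at 0.263 CPM per kilobase. SPC24, BIRC5 and MKI67 have gene models of 180, 420 and 429 bases, and their counts rest on these short models. The summed CPM of the 56 genes was 653 to 730 in irradiated and 656 to 771 in untreated libraries at 5 h, and 549 to 603 in irradiated and 629 to 664 in untreated libraries at 24 h. The groups overlapped in the sum at 5 h and did not overlap at 24 h. Abundant genes weigh most in this sum, so it does not show how most members moved. SMC4 and BUB3 had the highest means, 186 and 104 CPM over the 12 libraries. At 5 h they averaged 259 and 135 CPM in irradiated and 234 and 126 CPM in untreated cells. At 24 h they averaged 120 and 76.9 CPM in irradiated and 129 and 77.2 CPM in untreated cells.

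**Figure D1:**
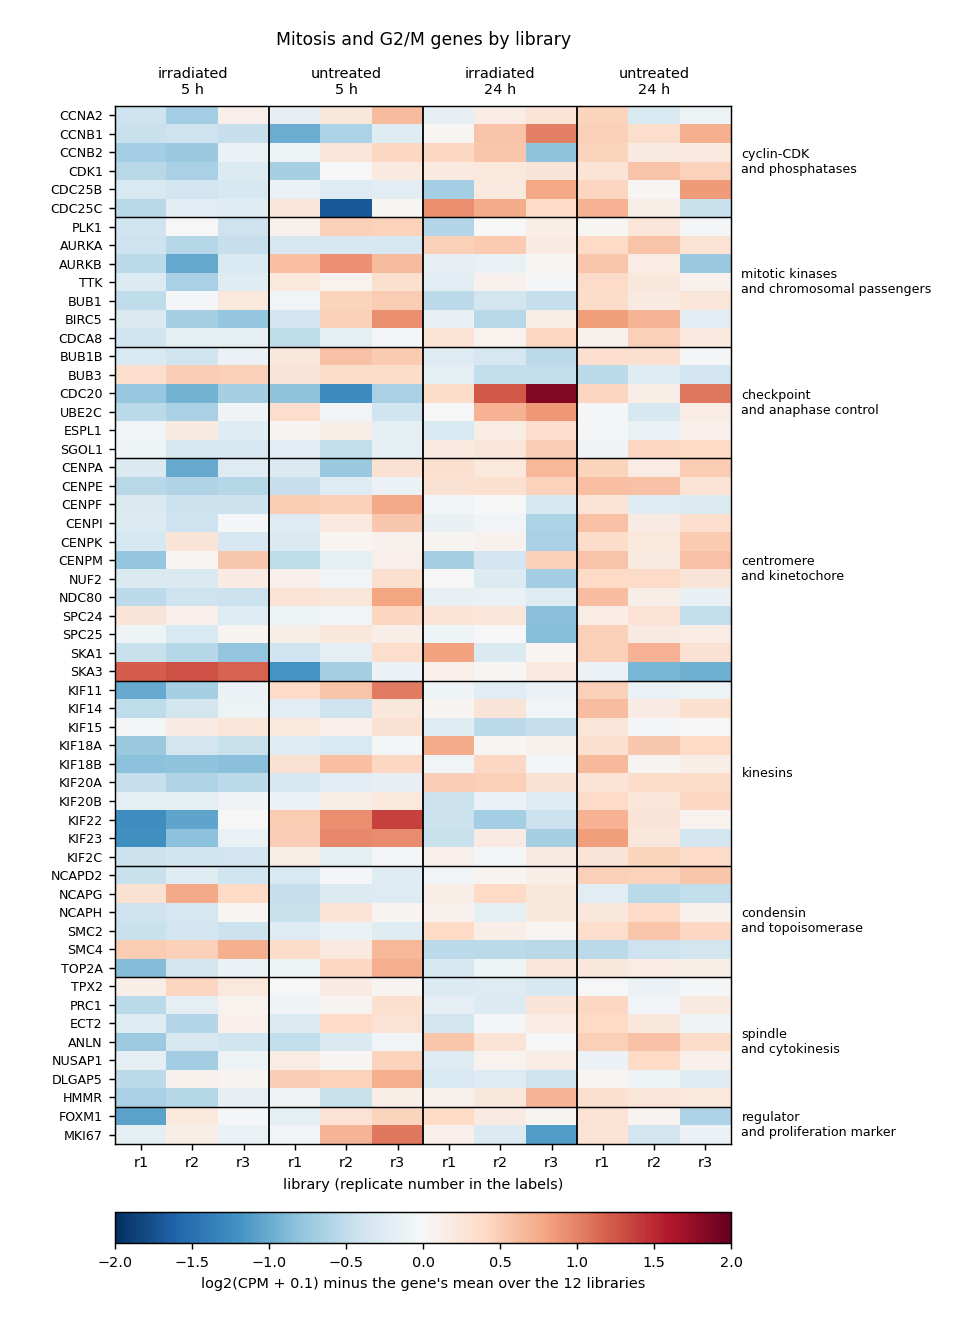
Each row is 1 of the 56 mitosis and G2/M genes, ordered by role, and each column is 1 library; colour gives log2(CPM + 0.1) minus the gene's mean over the 12 libraries. The 3 irradiated libraries at 5 h are pale to dark blue for most kinesins and kinases, and SKA3 is red there. CCNB1 and CDC20 are mostly red at 24 h with and without irradiation, and CCNB1 is near white in irradiated replicate 1.

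At 5 h irradiated cells were compared with untreated cells of the same time. Most of the genes sat below the untreated level, and few single genes passed the test. Of 54 tested, 45 had a negative log2 fold change, with a median of -0.33, against -0.00 and 50.4% negative over all 12969 genes tested. BIRC5 (survivin, of the chromosomal passenger complex) and SPC24 (a kinetochore subunit) were too low to be tested. By edgeR's quasi-likelihood test with Benjamini-Hochberg adjustment over all genes, 2 members rose and 2 fell, against 1.12% higher and 0.478% lower of all genes. SKA3 and NCAPG rose, and CENPF and KIF18B fell.

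At 5 h irradiated and untreated libraries of the same replicate number deviated together, so the fit with the replicate number as a block also belongs to this comparison. Log2 fold changes and standard errors are from the fit without the block unless the block is named for them. With the block 3 members rose and 20 fell, or 5.56% and 37.0% of those tested. Of all genes, 10.6% rose and 9.92% fell with the block. DESeq2 without the block called 2 higher and 8 lower, against 1.85% and 1.57% of all genes. All 3 irradiated libraries lay below all 3 untreated ones for 23 members (42.6%) and above them for 2 (3.7%), against 8.32% and 10.5% of all genes. The median log2 ratio over the members was -0.24, -0.28 and -0.34 within replicates 1, 2 and 3, against 0.00, 0.04 and -0.01 over all genes tested. In all 3 pairs 35 of the 54 members were lower and 5 higher, against 23.9% and 27.7% of all genes. Among the 35 members that averaged below 5 CPM the median log2 fold change was -0.47, with 32 negative, and among the 19 at 5 CPM or more it was -0.17, with 13 negative. Over all genes tested the median was -0.00 in both ranges. Across the 54 members Spearman's rho between log2 fold change and level per kilobase was 0.60. The level averaged all 12 libraries, 6 of which also gave the fold changes, so this value only describes these genes.

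**Figure D2:**
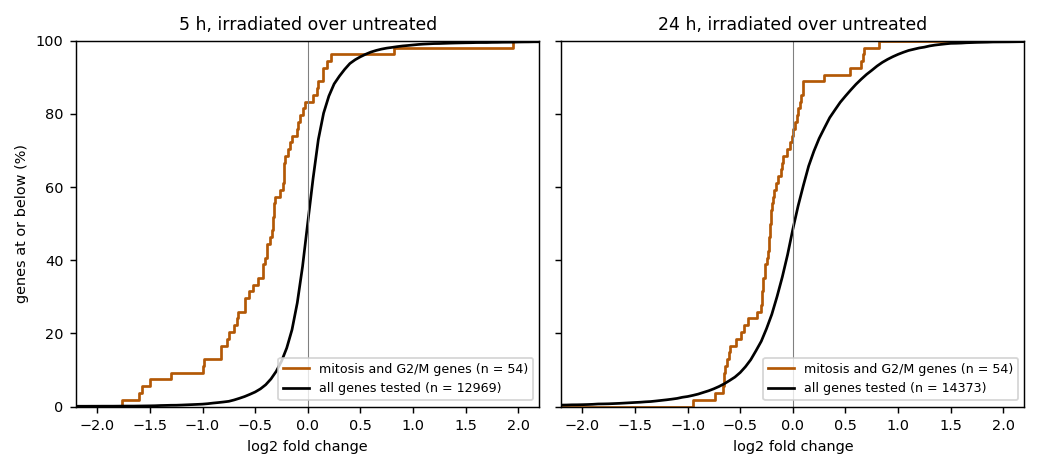
The share of genes (y axis, percent) at or below each log2 fold change, irradiated over untreated (x axis), is drawn for the 54 tested mitosis and G2/M genes and for all genes tested, at 5 h on the left and 24 h on the right. The median of the mitosis and G2/M genes is -0.33 at 5 h and -0.22 at 24 h, to the left of the curve of all genes at both times.

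Among the cyclins, CDK and phosphatases, 5 of 6 were negative at 5 h and none passed without the block. CCNB2 (cyclin B2) had 0.670, 0.642 and 1.03 CPM in irradiated cells, against 1.05, 1.36 and 1.55 CPM in untreated cells, so the groups did not overlap. Its log2 fold change was -0.77 ± 0.27 (SE, edgeR adjusted p = 0.29, 0.043 with the block). CCNA2 (cyclin A2) was the other member of this class called lower with the block (-0.60 ± 0.18, edgeR adjusted p = 0.029), and was at -0.60 ± 0.28 without it (0.43). CCNB1 (cyclin B1) had 7.68, 7.78 and 7.59 CPM in irradiated cells, against 5.23, 6.71 and 8.83 CPM in untreated cells. The CCNB1 groups overlapped (0.14 ± 0.18, edgeR adjusted p = 0.81), and within pairs its ratio was 1.47, 1.16 and 0.86. The values of CDK1, its kinase partner, were 3.06, 2.87 and 3.73 CPM in irradiated and 2.82, 4.5 and 5.20 CPM in untreated cells (-0.39 ± 0.24, edgeR adjusted p = 0.56).

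The mitotic kinases were all negative at 5 h. AURKB, the Aurora kinase of the chromosomal passenger complex, had 0.414, 0.264 and 0.498 CPM in irradiated cells, against 1.02, 1.30 and 1.05 CPM in untreated cells. Its groups stood apart, on 7 to 16 counts a library in irradiated and 27 to 41 in untreated cells. The log2 fold change was -1.5 ± 0.29 (edgeR adjusted p = 0.054, 0.0037 with the block, 0.017 in DESeq2). PLK1, the polo-like kinase, had 1.08, 1.47 and 1.06 CPM in irradiated cells, against 1.54, 2.06 and 2.04 CPM in untreated cells (-0.67 ± 0.22, edgeR adjusted p = 0.25, 0.033 with the block). TTK (MPS1) and BUB1, kinases of the spindle checkpoint, also fell with the block, at -0.61 ± 0.14 and -0.43 ± 0.12 (edgeR adjusted p 0.0055 and 0.018). Without it they were at -0.60 ± 0.17 and -0.43 ± 0.23 (edgeR adjusted p 0.17 and 0.49). AURKA, the Aurora kinase of spindle poles, differed little in level but without overlap, with 4.69, 4.19 and 4.51 CPM in irradiated and 4.97, 5.00 and 4.97 CPM in untreated cells (-0.17 ± 0.12, edgeR adjusted p = 0.62, 0.34 with the block). BIRC5 had 4, 2 and 2 counts in irradiated and 3, 9 and 13 counts in untreated libraries, too few to compare.

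Checkpoint and anaphase genes split evenly at 5 h, 3 positive and 3 negative, with a median of 0.00. BUB1B (BUBR1), a checkpoint inhibitor of the anaphase-promoting complex, had 2.65, 2.49 and 3.05 CPM in irradiated cells, against 3.87, 5.00 and 4.78 CPM in untreated cells. The BUB1B groups did not overlap (-0.75 ± 0.16, edgeR adjusted p = 0.078, 0.0011 with the block). CDC20, which activates that complex, had 5.39, 4.72 and 5.76 CPM in irradiated cells, against 5.19, 3.74 and 5.83 CPM in untreated cells, and the groups overlapped (0.10 ± 0.18, edgeR adjusted p = 0.87).

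The centromere and kinetochore genes held both a member that rose and one that fell. CENPF, a large outer kinetochore protein that peaks in G2 and mitosis (ENSLAFG00000027249, scaffold 74, 1977166 to 2033797, plus strand), had 3.38, 3.06 and 3.05 CPM in irradiated cells, against 5.91, 5.82 and 7.05 CPM in untreated cells. Means were 3.16 ± 0.188 and 6.26 ± 0.685 CPM in irradiated and untreated cells (SD, n = 3 each), a log2 fold change of -1.0 ± 0.13 (edgeR adjusted p = 0.011, 2e-05 with the block). Its call was lost without irradiated replicate 1 or 2, where the adjusted p reached at most 0.065. SKA3, of the SKA complex that tracks microtubule ends (ENSLAFG00000026119, scaffold 29, 5483175 to 5506037, minus strand), had 2.23, 2.34 and 2.18 CPM in irradiated cells, against 0.339, 0.538 and 0.824 CPM in untreated cells. The irradiated libraries were tight and every one exceeded every untreated one, which held 9, 17 and 25 counts. SKA3 rose by 1.95 ± 0.28 on the log2 scale (edgeR adjusted p = 0.016, 4.3e-05 with the block), and it lost its call without irradiated replicate 1 or 2 or untreated replicate 2 (at most 0.081). SKA1, its partner in the complex, had a log2 fold change of -0.66 ± 0.32 (edgeR adjusted p = 0.43, 0.21 with the block). NDC80, a microtubule-binding kinetochore subunit, had 1.08, 1.17 and 1.15 CPM in irradiated cells, against 1.96, 1.90 and 2.83 CPM in untreated cells (-0.99 ± 0.22, edgeR adjusted p = 0.087, 0.0026 with the block). Its partner NUF2 was at -0.26 ± 0.17 (edgeR adjusted p = 0.60, 0.08 with the block). CENPE, a kinetochore motor, fell by 0.32 ± 0.09 on the log2 scale with the block (edgeR adjusted p = 0.024) and was at -0.32 ± 0.12 without it (0.29).

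All 10 kinesins had negative values at 5 h, and with the block 6 of them fell, KIF18B included. KIF18B, a motor that shortens microtubules (ENSLAFG00000007052, scaffold 31, 26040903 to 26052410, minus strand), had 0.223, 0.227 and 0.218 CPM in irradiated cells, against 0.602, 0.760 and 0.659 CPM in untreated cells. These rest on 7, 6 and 7 counts in irradiated and 16, 24 and 20 counts in untreated libraries. KIF18B fell by 1.60 ± 0.29 on the log2 scale (edgeR adjusted p = 0.043, 0.0095 with the block), and the call was lost without any 1 of the 6 libraries (0.11 to 0.21), in DESeq2 (0.068), with no filter (0.06) and with all 12 libraries in 1 fit (0.077). KIF22 (Kid), which pushes chromosome arms from the poles, had the most negative member value, with 0.383, 0.453 and 1.06 CPM in irradiated cells against 1.54, 2.09 and 2.87 CPM in untreated cells. Its ratio of irradiated to untreated CPM was 0.248, 0.217 and 0.369 in the 3 pairs (-1.77 ± 0.40, edgeR adjusted p = 0.093, 5.5e-05 with the block).

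KIF23 (MKLP1), which bundles the central spindle, had 0.542, 0.756 and 1.28 CPM in irradiated cells, against 2.03, 2.85 and 2.80 CPM in untreated cells (-1.58 ± 0.31, edgeR adjusted p = 0.056, 8e-05 with the block). KIF11 (Eg5), which pushes the spindle poles apart, had 1.05, 1.36 and 2.05 CPM in irradiated cells, against 2.93, 3.36 and 4.68 CPM in untreated cells (-1.30 ± 0.28, edgeR adjusted p = 0.08, 2e-05 with the block). In KIF22, KIF23 and KIF11 the groups did not overlap, and DESeq2 called each of them lower (adjusted p 0.0026, 0.00059 and 0.0018). KIF2C (MCAK), a microtubule depolymerase, and KIF20B, a cytokinesis motor, fell with the block by 0.39 ± 0.10 and 0.23 ± 0.06 (edgeR adjusted p 0.011 for both). Without the block they were at -0.39 ± 0.12 and -0.23 ± 0.10 (edgeR adjusted p 0.21 and 0.37). The other 4 kinesins ran from -0.34 ± 0.16 for KIF18A to -0.09 ± 0.12 for KIF15.

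The chromosome-structure genes went both ways at 5 h. NCAPG, a regulatory subunit of condensin I (ENSLAFG00000009686, scaffold 18, 16734053 to 16784683, plus strand), had 12.7, 17.5 and 13.5 CPM in irradiated cells, against 7.45, 8.45 and 8.56 CPM in untreated cells. NCAPG was higher in every irradiated library (0.82 ± 0.14, edgeR adjusted p = 0.032, 5.9e-06 with the block), and its call held without irradiated replicate 3 and was lost without any other 1 of the libraries (at most 0.12). The other condensin I subunits NCAPD2 and NCAPH were at -0.19 ± 0.11 and -0.24 ± 0.24 (edgeR adjusted p 0.51 and 0.75, 0.053 and 0.43 with the block). Of the paired ATPase subunits of condensin, with the block SMC4 rose by 0.14 ± 0.04 and SMC2 fell by 0.22 ± 0.06 (edgeR adjusted p 0.034 and 0.013). Without the block they were at 0.14 ± 0.13 and -0.22 ± 0.07 (edgeR adjusted p 0.72 and 0.25). SMC4 overlaps microRNA rows on the same strand, and its reads could be shared with them. TOP2A, the topoisomerase that untangles sister chromatids, had 5.83, 8.24 and 9.77 CPM in irradiated cells, against 9.89, 14.2 and 17.7 CPM in untreated cells. The TOP2A groups came close without overlapping, and the ratio of irradiated to untreated was 0.59, 0.582 and 0.552 in the 3 pairs (-0.82 ± 0.25, edgeR adjusted p = 0.20, 2.6e-06 with the block).

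Of 7 spindle and cytokinesis genes, 6 were negative at 5 h. DLGAP5 (HURP) and NUSAP1, which stabilise spindle microtubules, fell with the block (-0.71 ± 0.15 and -0.57 ± 0.16, edgeR adjusted p 0.0023 and 0.018). Without it they were at -0.70 ± 0.19 and -0.56 ± 0.21 (edgeR adjusted p 0.17 and 0.32). The one positive gene was TPX2, an activator of Aurora A (0.18 ± 0.10, edgeR adjusted p = 0.54, 0.066 with the block). FOXM1, a transcription factor of G2/M genes, had 0.223, 0.680 and 0.560 CPM in irradiated and 0.489, 0.728 and 0.824 CPM in untreated cells (-0.52 ± 0.41, edgeR adjusted p = 0.67). MKI67, the proliferation marker Ki-67, had 0.478, 0.604 and 0.498 CPM in irradiated and 0.527, 0.950 and 1.25 CPM in untreated cells (-0.82 ± 0.35, edgeR adjusted p = 0.38, 0.10 with the block). Both groups overlapped in these 2 genes.

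**Figure D3:**
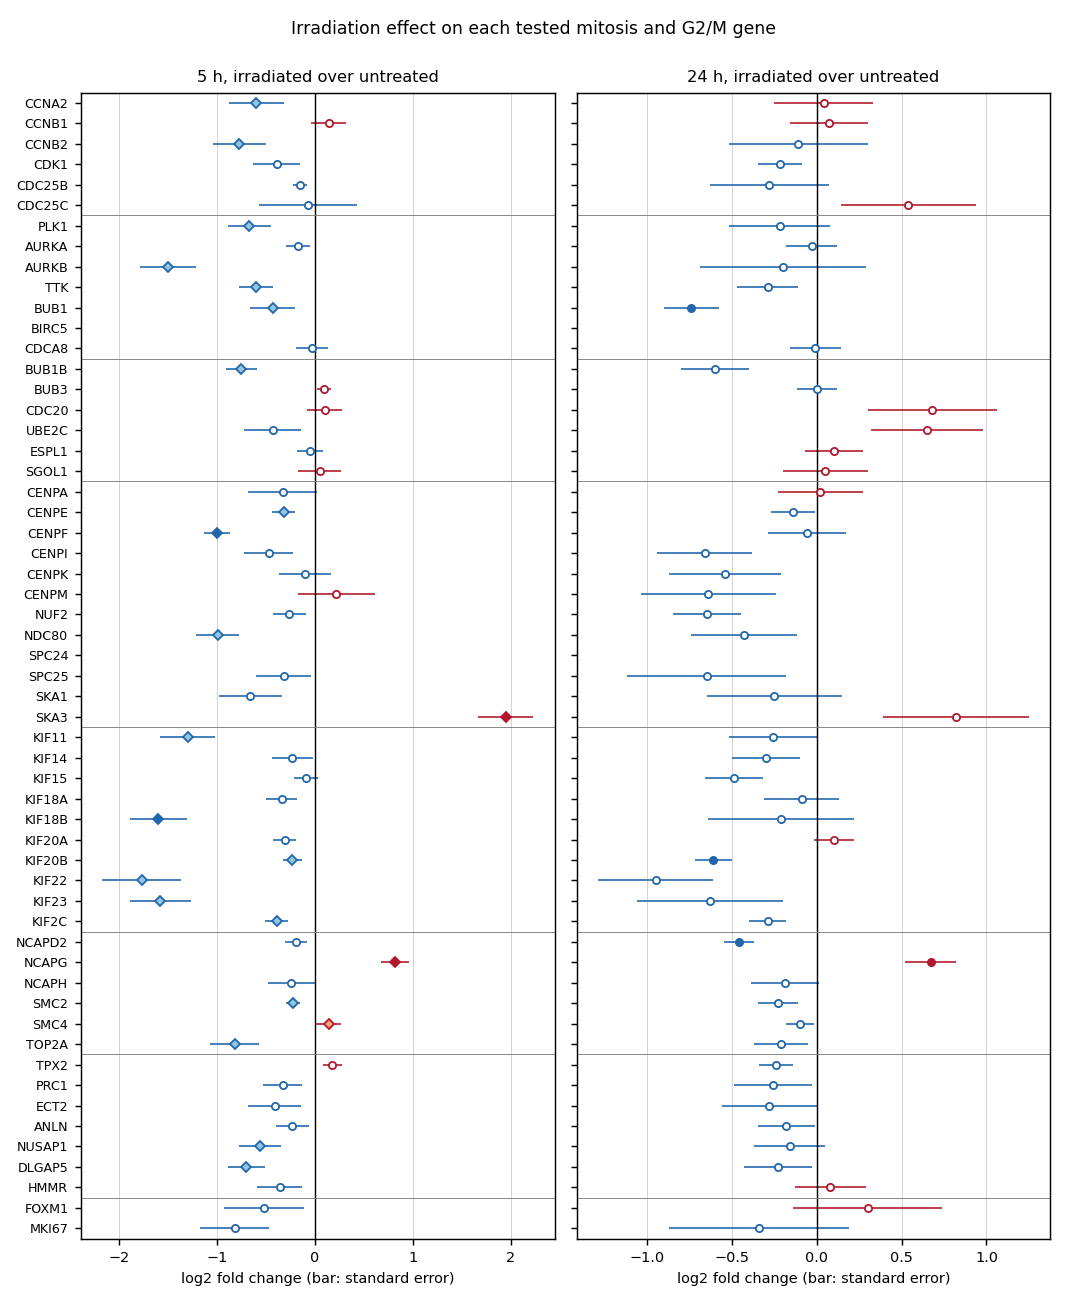
Log2 fold change (x axis, irradiated over untreated) with its standard error is drawn for each tested gene, ordered by role, at 5 h on the left and 24 h on the right. Dark filled symbols passed edgeR's test at an adjusted p below 0.05, diamonds (5 h panel) passed with the replicate block, blue is lower and red higher in irradiated cells, and BIRC5 and SPC24 have no symbol; the 10 kinesins all lie left of 0 at 5 h.

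At 24 h the members were again mostly below the untreated level, with a median nearer to 0, and NCAPG was the only member that passed at both times without the block. Of 54 tested, 41 were negative and 13 positive, with a median of -0.22, against 0.01 and 48.5% negative over all 14373 genes tested. By edgeR 1 member rose, NCAPG, and 3 fell, BUB1, KIF20B and NCAPD2. That is 1.85% and 5.56% of the members, against 1.8% higher and 4.94% lower of all genes, so the share of members that passed was close to the share of all genes. The 3 irradiated libraries lay below the 3 untreated ones for 15 members (27.8%) and above them for 2 (3.7%), against 16.7% and 8.7% of all genes. DESeq2 called 1 higher and 3 lower, against 4.22% and 7.72% of all genes.

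BUB1 (ENSLAFG00000008565, scaffold 129, 510643 to 569674, plus strand) had 2.78, 3.13 and 2.91 CPM in irradiated cells, against 5.27, 4.61 and 4.80 CPM in untreated cells at 24 h. The groups stood well apart (-0.74 ± 0.16, edgeR adjusted p = 0.04), and the call was lost without any 1 of the 6 libraries (0.066 to 0.12). BUB1B, its relative in the checkpoint, had 2.74, 2.60 and 2.26 CPM in irradiated cells, against 4.22, 4.15 and 3.22 CPM in untreated cells, without overlap (-0.60 ± 0.20, edgeR adjusted p = 0.13). KIF20B (ENSLAFG00000004622, scaffold 10, 28798039 to 28880295, minus strand) had 37.7, 46.7 and 42.3 CPM in irradiated cells, against 65.9, 59.8 and 67.8 CPM in untreated cells. Every irradiated library was below every untreated one (-0.61 ± 0.11, edgeR adjusted p = 0.024), and the call was lost without irradiated replicate 2 or 3 or untreated replicate 1 or 3 (at most 0.084).

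NCAPD2, the other condensin I regulatory subunit (ENSLAFG00000016117, scaffold 15, 51343988 to 51369741, plus strand), had 24.2, 26.2 and 27.7 CPM in irradiated cells, against 35.1, 34.7 and 37.1 CPM in untreated cells. It fell by 0.46 ± 0.09 on the log2 scale (edgeR adjusted p = 0.026), and the call was kept without irradiated replicate 1 and lost without any other library (at most 0.12). A small nucleolar RNA row lies within NCAPD2 on the same strand (log2 fold change 0.35, edgeR adjusted p = 0.45). NCAPG had 11.3, 13.6 and 12 CPM in irradiated cells, against 8.79, 7.06 and 7.28 CPM in untreated cells, and rose by 0.67 ± 0.15 on the log2 scale (edgeR adjusted p = 0.047). Its call was also kept without irradiated replicate 1 and lost without any other library (at most 0.18). The condensin I subunits NCAPG and NCAPD2 thus passed in opposite directions in the same 6 libraries. NCAPG passed at both times, with means of 14.6 ± 2.57 and 8.15 ± 0.615 CPM in irradiated and untreated cells at 5 h, and 12.3 ± 1.15 and 7.71 ± 0.945 CPM at 24 h (SD, n = 3 each).

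CENPF, SKA3, KIF22 and TOP2A were not called at 24 h, where the fit had no block. BUB1 and KIF20B, called lower at 24 h, had been called lower at 5 h with the block. CENPF had 3.98, 4.19 and 3.32 CPM in irradiated cells, against 5.04, 3.51 and 3.43 CPM in untreated cells, and the groups overlapped (-0.06 ± 0.23, edgeR adjusted p = 0.90). SKA3 had 0.977, 0.925 and 1.05 CPM in irradiated cells, against 0.823, 0.432 and 0.411 CPM in untreated cells, still without overlap (0.82 ± 0.43, edgeR adjusted p = 0.33). KIF22 was at -0.95 ± 0.34 (edgeR adjusted p = 0.16), with 0.751, 0.617 and 0.753 CPM in irradiated and 1.75, 1.27 and 1.10 CPM in untreated cells. TOP2A had 8.53, 10 and 12.7 CPM in irradiated cells, against 12.5, 11.9 and 11.6 CPM in untreated cells (-0.21 ± 0.16, edgeR adjusted p = 0.49).

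The cyclins, CDK1, CDC20 and the other kinases given here were not called at 24 h. CCNB1 had 10.7, 15.6 and 21.2 CPM in irradiated cells, against 14.6, 13.3 and 17.3 CPM in untreated cells (0.07 ± 0.23, edgeR adjusted p = 0.90). CDC20 had 11.8, 21.8 and 33.3 CPM in irradiated cells, against 12.3, 10 and 19.1 CPM in untreated cells (0.68 ± 0.38, edgeR adjusted p = 0.36), a wide spread in which irradiated replicate 1 lay at the level of untreated cells. The values were -0.22 ± 0.13 for CDK1 (edgeR adjusted p = 0.39), -0.11 ± 0.41 for CCNB2 (0.91), -0.22 ± 0.30 for PLK1 (0.72), -0.03 ± 0.15 for AURKA (0.94) and -0.20 ± 0.49 for AURKB (0.85). They were 0.30 ± 0.44 for FOXM1 (edgeR adjusted p = 0.74) and -0.34 ± 0.53 for MKI67 (0.76).

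**Figure D4:**
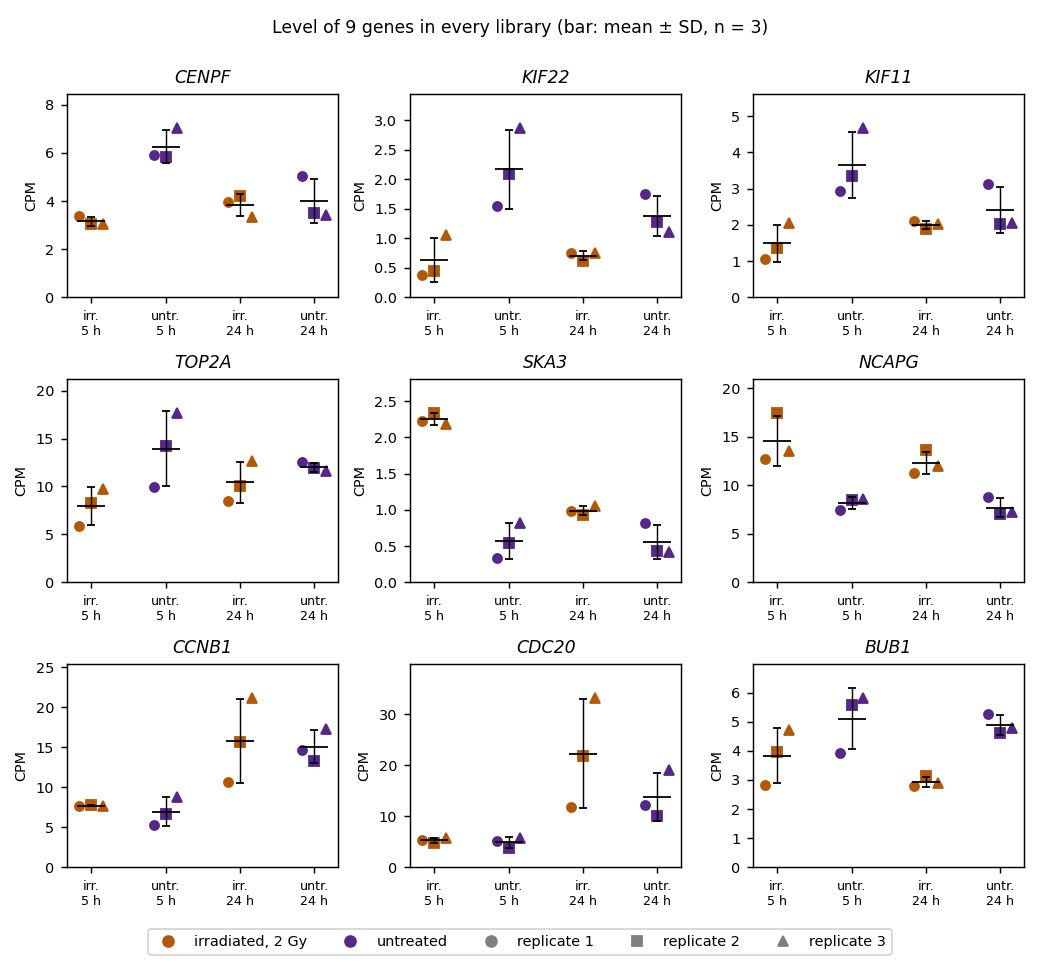
CPM (y axis) of 9 genes in every library, with irradiated libraries in brown, untreated in purple, a symbol for each replicate number, and bars for mean and SD (n = 3). CENPF, KIF22, KIF11 and TOP2A are lower and SKA3 and NCAPG higher in irradiated cells at 5 h, BUB1 is lower in irradiated cells at 24 h, and CCNB1 and CDC20 are higher at 24 h than at 5 h in both groups.

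Whether the irradiation effect differed between the times was tested by an interaction term over the 12 libraries. Of 55 members tested, 0 were called higher and 0 lower by edgeR, against 0.125% higher and 0.757% lower of all genes. At an unadjusted p below 0.05, 6 were higher and 3 lower, against 432 and 1080 of all 15200 genes tested. DESeq2 called 1 higher and 0 lower, against 0.526% and 1.86% of all genes. That one was CENPF, whose effect was 0.94 ± 0.25 less negative at 24 h (edgeR adjusted p = 0.14, DESeq2 0.04). KIF18B and AURKB were at 1.39 ± 0.51 and 1.32 ± 0.57 and SKA3 at -1.12 ± 0.49 (edgeR adjusted p 0.33, 0.45 and 0.46). A p above the threshold does not show that the effects were alike. Over the 54 members tested at both times the log2 fold changes at 5 h and 24 h had a Pearson's r of 0.51 and a Spearman's rho of 0.32, against 0.57 and 0.51 over all genes tested in both.

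The levels also changed between the times, in both untreated and irradiated cells. Time and deposited table coincide, so the 2 cannot be told apart. In untreated cells at 24 h against 5 h, 14 of 55 members rose and 4 fell, or 25.5% and 7.27%, against 32.6% higher and 30.5% lower of all genes (member median 0.15, all genes 0.11). In irradiated cells 20 of 54 rose and 5 fell, or 37.0% and 9.26%, against 35.3% and 30.6% of all genes (median 0.48, all genes 0.10). In both comparisons the share that rose was near or below that of all genes, and the share that fell was below it. The 12 members that rose in both were ANLN, AURKA, CCNB1, CDC20, CDCA8, CDK1, CENPE, KIF18A, KIF20A, KIF2C, NCAPD2 and SMC2, and BUB3 and SMC4 fell in both.

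CDC20 averaged 22.3 ± 10.7 CPM at 24 h and 5.29 ± 0.524 CPM at 5 h in irradiated cells, and 13.8 ± 4.71 and 4.92 ± 1.07 CPM in untreated cells (SD, n = 3 each). It rose by 2.16 ± 0.33 on the log2 scale in irradiated and by 1.56 ± 0.25 in untreated cells (edgeR adjusted p 0.00055 and 0.00077). CCNB1 averaged 15.9 ± 5.23 CPM at 24 h and 7.69 ± 0.0956 CPM at 5 h in irradiated cells, and 15.1 ± 2.02 and 6.92 ± 1.81 CPM in untreated cells (log2 fold changes 1.13 ± 0.22 and 1.19 ± 0.19, edgeR adjusted p 0.0022 and 0.00079). AURKA rose by 0.99 ± 0.16 in irradiated and 0.83 ± 0.14 in untreated cells, and CENPE by 1.03 ± 0.12 and 0.84 ± 0.15. SMC4, the member with the highest mean CPM, averaged 120 ± 1.73 CPM at 24 h and 259 ± 24.4 CPM at 5 h in irradiated cells, and 129 ± 8.56 and 234 ± 39.5 CPM in untreated cells (-1.01 ± 0.10 and -0.79 ± 0.12). BUB3 fell by 0.72 ± 0.12 in irradiated and by 0.64 ± 0.09 in untreated cells.

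Members called in irradiated cells alone were CDC25C, CENPA, HMMR, KIF14, KIF18B, SGOL1, SKA1 and UBE2C, which rose, and SKA3, TPX2 and KIF15, which fell. CDC25B and KIF20B rose and CENPF and DLGAP5 fell in untreated cells alone. None of these 15 differences between irradiated and untreated cells passed edgeR's interaction test, and DESeq2 passed that of CENPF and gave no adjusted p for KIF18B and SKA1. KIF14 and SGOL1 kept the call in 1 of 6 fits that left out a library each, KIF20B, SKA1 and UBE2C in 2, KIF15 in 3, HMMR in 4 and KIF18B and DLGAP5 in 5. In DESeq2 KIF14, SGOL1, KIF18B and SKA1 were at adjusted p values of 0.076, 0.078, 0.057 and 0.056 in irradiated cells, and KIF20B at 0.053 in untreated cells. CENPF was at 0.37 ± 0.18 in irradiated and -0.58 ± 0.21 in untreated cells (edgeR adjusted p 0.097 and 0.039), and its call in untreated cells was kept in 1 of the 6 fits that left out a library each. KIF18B was at 1.30 ± 0.34 and -0.10 ± 0.37 (0.0087 and 0.82). SKA3 fell by 1.10 ± 0.21 in irradiated cells (edgeR adjusted p = 0.0018) and was at 0.03 ± 0.48 in untreated cells. Over 54 members the 2 sets of log2 fold changes had a Pearson's r of 0.59 and a Spearman's rho of 0.55, against 0.92 and 0.91 over all genes tested in both.

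**Figure D5:**
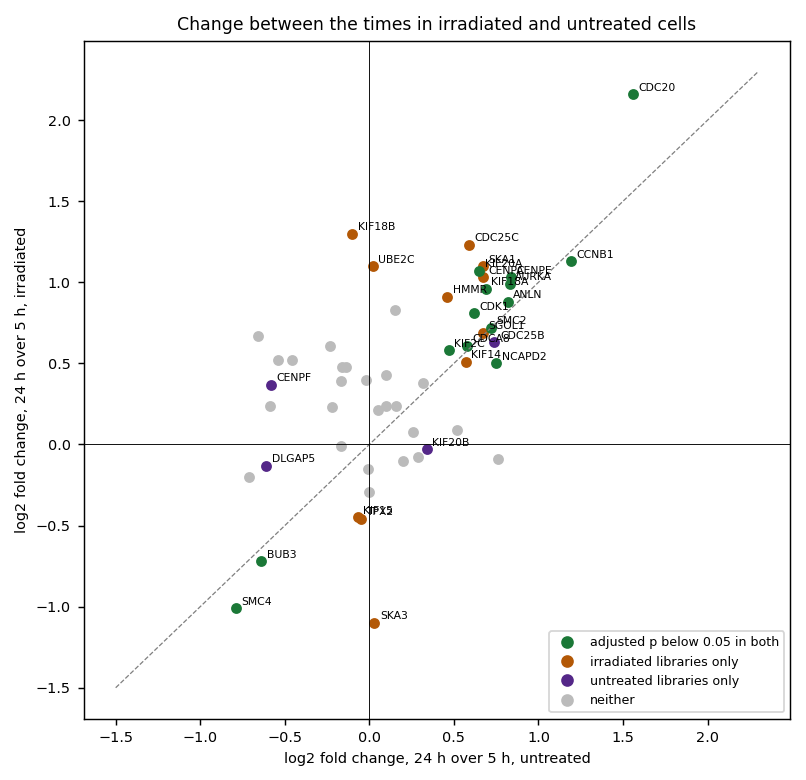
Each point is a mitosis and G2/M gene, with its log2 fold change at 24 h over 5 h in irradiated cells on the y axis and in untreated cells on the x axis; the dashed line marks equal change. CDC20 and CCNB1 lie far out along the line, and KIF18B (1.30 and -0.10) and SKA3 (-1.10 and 0.03) lie away from it.

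The regulators upstream of these genes were read at both times. CDKN1A rose by 1.33 ± 0.14 at 5 h and 2.58 ± 0.18 at 24 h (edgeR adjusted p 0.0028 and 0.00062), and MDM2, the ubiquitin ligase of p53, by 2.64 ± 0.11 and 2.68 ± 0.10 (2.4e-05 and 0.00017). CDKN1A had 426, 312 and 357 CPM in irradiated cells, against 47.3, 74.4 and 62.3 CPM in untreated cells at 24 h. The pocket proteins and their partner were not called at either time without the block. At 5 h the log2 fold changes were -0.30 ± 0.10 for RBL1 (edgeR adjusted p = 0.27, 0.018 with the block), -0.01 ± 0.10 for RBL2 (0.98) and 0.10 ± 0.09 for E2F4 (0.72). At 24 h they were -0.41 ± 0.12 for RBL1 (edgeR adjusted p = 0.091), -0.22 ± 0.08 for RBL2 (0.17) and 0.10 ± 0.12 for E2F4 (0.68). MYBL2 (B-Myb), which activates G2/M genes, had 0.864, 0.969 and 0.854 CPM in irradiated cells, against 1.48, 0.979 and 1.76 CPM in untreated cells at 24 h (-0.65 ± 0.33, edgeR adjusted p = 0.32), and was at -0.04 ± 0.20 at 5 h (0.96).

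LIN9, a core subunit of DREAM and of the MYB complex, fell at 24 h, with 16.8, 18.1 and 17.5 CPM in irradiated cells, against 25.8, 24.3 and 27.2 CPM in untreated cells (-0.57 ± 0.09, edgeR adjusted p = 0.017). Of 16 regulators tested at 24 h, 1 rose and 1 fell, or 6.25% each, against 1.8% and 4.94% of all genes. In the same list LIN37, LIN52 and LIN54 averaged 43.2, 5.73 and 78.7 CPM in irradiated cells at 24 h. In untreated cells they averaged 40.2, 5.21 and 79.3 CPM. The further genes of mitosis include anaphase-promoting complex, constitutive kinetochore and cohesin genes, besides other spindle, cytokinesis and G2/M control genes. They differ from the members in level. Their 85 rows summed to 5019 to 5073 CPM in untreated libraries at 5 h, against 656 to 771 CPM for the 56 members. Of 84 further genes of mitosis tested at 24 h, 0 rose and 4 fell, with a median of -0.13. The 4.76% that fell is close to the 4.94% of all genes. By edgeR 2 were higher and 18 lower at an unadjusted p below 0.05, and DESeq2 called 1 higher and 7 lower. Over all 14373 genes tested, 1052 were higher and 2044 lower at that unadjusted p, and DESeq2 called 4.22% and 7.72%. The 4 were MAD2L2, an inhibitor of the anaphase-promoting complex that also acts in DNA repair (-0.64 ± 0.09, edgeR adjusted p = 0.01), PLK4, the kinase of centriole duplication (-0.46 ± 0.09, 0.033), ANAPC13, a subunit of the anaphase-promoting complex (-0.73 ± 0.16, 0.044), and CIT, a cytokinesis kinase (-0.89 ± 0.21, 0.049). MAD2L2 lost its call without irradiated replicate 2 or untreated replicate 3 (at most 0.065), and LIN9 and PLK4 lost theirs without irradiated replicate 2 or 3 or untreated replicate 1 or 3 (at most 0.08 and 0.15). ANAPC13 lost it without any 1 library and CIT without any but untreated replicate 2 (at most 0.14 for both), and CIT was at 0.052 with RLE scaling. MAD2L2 had 19.3, 17.5 and 18.6 CPM in irradiated cells, against 25.6, 30.2 and 30.5 CPM in untreated cells. At 5 h 0 of 82 of these genes were called by edgeR (5 higher and 12 lower at an unadjusted p below 0.05, 0 and 1 by DESeq2), with a median of -0.03, against -0.33 for the 54 members. With the block 7 were higher and 8 lower, or 8.54% and 9.76%, close to the 10.6% and 9.92% of all genes. Of all 12969 genes tested at 5 h, 807 were higher and 865 lower at an unadjusted p below 0.05, and DESeq2 called 1.85% and 1.57%.

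Of 47 DNA replication genes, 1 rose and 0 fell at 5 h (3 higher and 10 lower at an unadjusted p below 0.05, 2 and 0 by DESeq2, 4 and 10 with the block), with a median of -0.09, and 1 rose and 4 fell at 24 h (2 higher and 22 lower at an unadjusted p below 0.05, 2 and 7 by DESeq2), with a median of -0.24. At 24 h these are 2.13% and 8.51%, against 1.8% and 4.94% of all genes, and at 5 h 2.13% rose against 1.12%. With the block at 5 h 8.51% were higher and 21.3% lower, against 10.6% and 9.92% of all genes. Among the members 37.0% were lower with the block. Of the replication genes 70.2% were negative at 5 h and 80.9% at 24 h, against 50.4% and 48.5% of all genes. DNA2, a nuclease-helicase, rose at both times (2.22 ± 0.10 and 1.49 ± 0.12, edgeR adjusted p 3.6e-05 and 0.0013). MCM3, of the replicative helicase, and TIPIN, of the fork protection complex, fell at 24 h (-0.82 ± 0.09 and -0.70 ± 0.10, edgeR adjusted p 0.0038 and 0.01). At 5 h MCM3 and TIPIN were at -0.33 ± 0.14 and -0.26 ± 0.09 (edgeR adjusted p 0.36 and 0.29, 0.0012 and 0.016 with the block). Among 12 p53 response genes 9 rose at each time, with medians of 1.95 and 1.63.

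Markers of blood cell types moved in the same comparisons, and in bulk RNA fewer cells of a type and less RNA per cell cannot be told apart. At 24 h the summed CPM of 14 B cell markers was 64.5 to 81.3 in irradiated and 429 to 525 in untreated libraries, and all 13 tested fell (median -3.00). At 5 h that sum was 204 to 272 in irradiated and 321 to 391 in untreated libraries, all 14 were negative (median -0.45), 1 was called lower, and 11 were with the block. The sum of 15 T cell markers was 548 to 672 in irradiated and 837 to 916 CPM in untreated libraries at 24 h, with 5 lower, and 465 to 648 against 494 to 738 CPM at 5 h, with 0 called (1 lower at an unadjusted p below 0.05 by edgeR, 1 by DESeq2, 8 with the block).

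For 9 NK and cytotoxic markers the sums were 164 to 239 in irradiated and 416 to 488 CPM in untreated libraries at 24 h, with 6 lower, and 217 to 284 against 243 to 355 CPM at 5 h, with 0 called (1 higher and 3 lower at an unadjusted p below 0.05 by edgeR, 1 lower by DESeq2, 7 lower with the block). Sums of 9 monocyte markers were 6094 to 6941 in irradiated and 3271 to 3988 CPM in untreated libraries at 24 h, with 3 higher, and 3818 to 4866 against 3126 to 4008 CPM at 5 h, with 2 higher (6 at an unadjusted p below 0.05 by edgeR, 4 by DESeq2, 7 higher and 1 lower with the block). ITGAM weighed most in the monocyte sum at 24 h, with means of 3079 CPM in irradiated and 1226 CPM in untreated cells. CSF1R averaged 1405 and 1397 CPM there. All 9 were positive at 24 h, with a median log2 fold change of 1.17. Between the times, 12 neutrophil markers summed to 849 to 1036 CPM at 24 h and 2625 to 2956 CPM at 5 h in irradiated cells, and to 439 to 667 and 2685 to 3125 CPM in untreated cells. Sums of 7 platelet markers were 106 to 135 in irradiated and 49.8 to 66.8 CPM in untreated libraries at 24 h, and 86.4 to 163 against 66.1 to 142 CPM at 5 h. Listed markers that matched no row by symbol were left out. The sums hold 14 of 15 listed B cell, 15 of 16 T cell, 9 of 13 NK and 9 of 15 monocyte markers. They hold 12 of 13 neutrophil, 7 of 10 platelet, 6 of 10 erythroid and 10 of 11 stromal and endothelial markers. No marker that matched a row was at 0 in all libraries. The part of these cell types in the changes of the mitosis and G2/M genes was not tested. The sums of 6 erythroid markers were 17.6 to 38.9 in irradiated and 11.4 to 19.9 CPM in untreated libraries at 24 h, and 11.5 to 27.0 against 10.6 to 28.7 CPM at 5 h. Those of 10 stromal and endothelial markers were 824 to 954 in irradiated and 803 to 1023 CPM in untreated libraries at 24 h, and 377 to 392 against 415 to 452 CPM at 5 h. PECAM1, which blood cells also express, averaged 583 CPM and made up most of the stromal sum.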

How the data were processed

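The authors deposited 1 table of whole-number read counts per gene and library for each time point, per the file headers, with exon lengths and coordinates on scaffolds of build L_africana_Jul_2009. Per the labels' protocols, libraries were made from total RNA with a stranded kit after ribosomal RNA depletion. Aligner, counter and strand setting: not given in the sources used here. Members and gene lists were chosen with earlier results of these data known. Members were matched by symbol, and levels per kilobase divide CPM by the deposited exon length.

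Counts were tested with edgeR 4.0.16 in R 4.3.3 (TMM, filterByExpr, quasi-likelihood F test, Benjamini-Hochberg adjustment over all genes, threshold 0.05). Each comparison of 2 groups used its 6 libraries, and the interaction used all 12. Standard errors were taken from the F statistic, and log2 ratios within pairs used a pseudocount of 0.1 CPM. The scripts were tested on simulated data. Alternatives were RLE scaling, no filter, DESeq2 1.42.0, a replicate block, all 12 libraries in 1 fit, and leaving out each library. Replicates of a group differed beyond sampling noise (chi-square per degree of freedom 17.4 to 88.8).

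Pairing by replicate number was checked from the correlation of each library's deviations from its group mean, over 9560 genes. At 5 h same-numbered libraries correlated at 0.671, 0.681 and 0.823 and others at -0.591 to -0.037, so the numbers pair them. The pairing comes from these correlations, not from the labels.

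Named in full were members that passed in an irradiation comparison, at most 12 per comparison, a set list of mitotic genes and regulators, and at most 6 other mitosis genes and 3 replication genes. Members called with the block, and those set beside a relative, were named after their values were seen.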

Additional observations from a re-analysis of the deposited data

Results flagged for a closer look

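The irradiation effect on CDKN1A, the inhibitor upstream of the mitosis and G2/M genes, differed between the times by the interaction test. Its log2 fold change was 2.58 ± 0.18 at 24 h and 1.33 ± 0.14 at 5 h, a difference of 1.24 ± 0.25 (edgeR over 12 libraries, adjusted p = 0.034, 0.00034 in DESeq2, 0.049 with the replicate block). All 3 irradiated libraries were above all 3 untreated ones at both times. The call for the difference was kept in 3 of the 12 fits that left out a library each and lost in the other 9, with adjusted p values from 0.017 to 0.10. CDKN1A had 544, 575 and 542 CPM in irradiated and 172, 228 and 257 CPM in untreated cells at 5 h. At 24 h it had 426, 312 and 357 CPM in irradiated and 47.3, 74.4 and 62.3 CPM in untreated cells, so its level was lower at 24 h in both groups while the fold between the groups was larger.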

How the results depend on the processing

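For irradiation at 5 h the 2 members called higher and 2 called lower were the same with RLE scaling. With no filter the counts were again 2 and 2. There KIF23 was called lower (edgeR adjusted p = 0.049) and KIF18B was not (0.06). Members called lower numbered 8 in DESeq2 and 20 with the replicate block, and with a library left out 0 to 2 were higher and 0 to 4 lower, with 0 and 0 without irradiated replicate 1 or 2. At 24 h, where 1 was higher and 3 lower, the replicate block gave 0 and 0, 1 fit of all 12 libraries gave 6 lower, and leaving out a library gave 0 to 1 higher and 0 to 3 lower, with 0 and 0 without irradiated replicate 2 or 3 or untreated replicate 1 or 3. At 24 h same-numbered libraries correlated at -0.16, -0.595 and 0.85, and across times between -0.165 and 0.158, so those numbers do not pair the libraries. Under other numbers at 24 h, irradiated replicate 1 correlated with untreated replicate 2 at 0.837 and irradiated replicate 2 with untreated replicate 1 at 0.535, and the block at 24 h does not join these libraries. The block moved no other count of called members by over 1.5 times. In untreated cells between the times, leaving out a library gave 2 to 8 members lower, with 8 without untreated replicate 1 at 24 h. For the interaction DESeq2 called 1 higher. The cause of these differences was not tested.

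Of 1140 repeats of single-gene values, 977 kept direction and side of the threshold, 136 lost the call, 10 gained one and 17 changed sign, 16 of them with a library left out. At 5 h the log2 fold changes with a library left out ran from -0.03 to 0.34 for CCNB1, -0.06 to 0.23 for CDC20, -0.19 to 0.12 for MYBL2 and -0.08 to 0.10 for RBL2, which was 0.00 with all 12 libraries in 1 fit. At 24 h they ran from -0.20 to 0.27 for CCNB1, -0.38 to 0.21 for CCNB2, -0.12 to 0.07 for AURKA, -0.53 to 0.22 for AURKB and -0.02 to 0.17 for E2F4. None of these genes was called. Counts of 2 to 13 a library for BIRC5, 6 to 24 for KIF18B and 7 to 41 for AURKB limit what can be seen for them. The irradiated libraries at 24 h hold 18022475 to 23805619 counts.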
